A study of Mus musculus with 2 samples.

Results

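The Ly6 surface antigens of GR1+ cells from 4T1 breast tumors were followed in 6 of the 32285 genes counted, namely Ly6g, Ly6c1, Ly6c2, Ly6a, Ly6i and Ly6e, which were taken by name. All 6 were found in both libraries. Cells were retained when 500 to 5000 genes had a UMI (unique molecular identifier, standing for 1 captured RNA molecule) and mitochondrial genes took no more than 10% of UMIs, which left 5187 of 7951 barcodes. Neutrophils were the cells in which S100a8 and S100a9 took at least 1.5% of UMIs and C1qa, C1qb, C1qc and Apoe together less than 0.5%. Macrophages were the cells with less than 1.5% S100a8 and S100a9 and at least 0.3% of UMIs from C1qa, C1qb, C1qc, Apoe, Csf1r, Cd68 and Fn1. T/NK cells were the cells with a UMI of at least 2 of Cd3d, Cd3e, Cd3g, Trac, Trbc2 and Nkg7, and cells meeting none of these rules were left unclassed.

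The Ly6 genes encode small surface proteins of the three-finger fold that are held in the membrane by a glycosylphosphatidylinositol anchor. Ly6G marks mouse neutrophils, and Ly6C, the product of the neighboring genes Ly6c1 and Ly6c2, marks inflammatory monocytes and is also carried by granulocytes, plasmacytoid dendritic cells, endothelium and memory T cells. The Gr-1 antibody RB6-8C5, listed among the study's reagents, binds Ly6G and, less strongly, Ly6C, so that a GR1+ selection is a selection on the proteins of 3 of these genes. Ly6a encodes Sca-1, a marker of blood stem cells, endothelium and activated lymphocytes, and Ly6a and Ly6e are both known to be induced by interferon.

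The 4T1 line is a mammary carcinoma of BALB/c mice. Tumors of the parental, anti-PD1 non-responding line (4T1P) were compared with tumors of its carcinogen-mutagenized, responding derivative (4T1M). The BALB/c mice were sampled before treatment per the methods and were 6 to 8 weeks old in the sample records. The paper's methods give an older range at injection. GR1+ cells were taken with magnetic beads and 1 droplet library was made per tumor line from pooled mice, with 5 mice in the sample records and a smaller number in the figure legend. The labels name no genetic change or agent in either group of mice, and the tumor line was the difference between the groups, with 1 mutagenized derivative. With 1 library per line there was no spread between animals, no test was made, and every interval given is a 95% interval for counting error only. The direction and size of each difference therefore describe 2 libraries, and tumor line, library and mouse pool cannot be told apart.

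The 4T1P library held 21855657 UMIs in 2947 barcodes and the 4T1M library 24303957 UMIs in 5004 barcodes, of which 1726 and 3461 were retained. Neutrophils numbered 612 in 4T1P and 1686 in 4T1M, with medians of 3054.5 and 2957.5 UMIs, macrophages 798 and 976 (9727 and 9213.5 UMIs), T/NK cells 74 and 98, and unclassed cells 243 and 705. At least 2 of 10 neutrophil markers were seen in 98.7% and 99.1% of the neutrophils, and in 22.9% and 37.8% of the macrophages. At least 2 of 12 macrophage markers were seen in 99.7% and 99.8% of the macrophages. The 12 include every gene of the macrophage rule, so this share follows from the rule and is no check of the class. In neutrophils it was 46.6% and 42.7%. The libraries shared 5 barcodes, 3 of them retained in each. These shares of cell classes follow a bead selection on the Gr-1 epitope and are not shares of the tumor.

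The 6 genes lie within 204076 bases of chromosome 15 (GRCm38, chr15:74955051-75159126), a stretch with 7 further annotated genes, none of them protein-coding. Ly6e stands at one end on the plus strand (74955051 to 74959905), followed by Ly6i (74979534 to 74983430), Ly6a (74994877 to 74998031), Ly6c1 (75044018 to 75048830) and Ly6c2 (75108158 to 75111970) on the minus strand, and Ly6g (75155240 to 75159126) closes the stretch on the plus strand. The coding sequences span 396 to 411 bases. Those of Ly6c1 and Ly6c2 were identical at 387 of 396 bases (97.7%), whereas Ly6g shared 78.3% of aligned bases with Ly6c2, Ly6a shared 86.4% with Ly6i, and Ly6e shared 50.1% to 53.1% with the other members. The first 120 coding bases, at the signal peptide end, are shown to set the genes of the Gr-1 antigens and of Sca-1 side by side. Sequences run 5′ to 3′, come from the GENCODE transcripts of GRCm38 and carry capitals at bases that differ from Ly6c2.
Ly6c2: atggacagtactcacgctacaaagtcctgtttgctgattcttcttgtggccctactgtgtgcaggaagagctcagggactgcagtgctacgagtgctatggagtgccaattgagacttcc
Ly6c1: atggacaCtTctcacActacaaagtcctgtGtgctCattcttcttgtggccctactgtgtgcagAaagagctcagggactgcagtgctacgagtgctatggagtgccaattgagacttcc
Ly6g: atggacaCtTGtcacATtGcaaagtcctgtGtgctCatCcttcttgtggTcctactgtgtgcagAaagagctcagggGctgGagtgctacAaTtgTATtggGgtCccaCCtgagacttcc
Ly6a: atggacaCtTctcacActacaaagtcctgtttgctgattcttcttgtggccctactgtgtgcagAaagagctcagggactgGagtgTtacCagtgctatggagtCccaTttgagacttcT

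Within this stretch Ly6c1 differed from Ly6c2 at 6 bases, Ly6a at 10 and Ly6g at 22. Over the whole coding sequence, gaps left out, they differed at 9, 65 and 79 bases, so most Ly6c1 differences lay in the stretch shown. Because droplet reads fall near transcript ends, windows of 90 bases in the last 500 bases of the annotated transcripts were looked up in the whole transcripts of every other gene. Of the Ly6c2 windows 19.3% occurred unchanged in Ly6c1, and of the Ly6c1 windows 13.8% occurred in Ly6a or Ly6c2, while no window of Ly6g, Ly6a, Ly6i or Ly6e was found in another member. Reads from such windows cannot be assigned to 1 gene, so the division of counts between Ly6c1 and Ly6c2 is uncertain and their sum is given beside them. The reference is the C57BL/6 genome and the mice were BALB/c, strains that carry different Ly6 alleles, and the effect of this on either library's counts was not tested.

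Upstream sequence is shown for the 3 genes of the Gr-1 epitope, which were the only members with an entry in the promoter table used. The RefSeq promoter table (GRCm38.p6) held 6 starts of 3 of the 6 members. For each gene the 250 bases before the start nearest to the annotated gene start are given on the gene's strand, with capitals at motif matches, and the other starts are not shown or described.
Ly6g, chr15:75155011-75155260, plus strand: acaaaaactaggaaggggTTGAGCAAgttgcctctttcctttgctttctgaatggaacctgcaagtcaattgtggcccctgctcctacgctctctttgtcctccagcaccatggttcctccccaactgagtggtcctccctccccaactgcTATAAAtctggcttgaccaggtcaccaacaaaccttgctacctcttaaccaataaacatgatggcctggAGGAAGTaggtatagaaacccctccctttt
Ly6c2, chr15:75111972-75112221, minus strand: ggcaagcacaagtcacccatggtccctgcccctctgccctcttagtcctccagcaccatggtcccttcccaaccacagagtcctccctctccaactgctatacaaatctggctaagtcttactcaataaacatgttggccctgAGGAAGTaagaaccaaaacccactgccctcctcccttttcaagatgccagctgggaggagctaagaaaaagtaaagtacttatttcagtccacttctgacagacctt
Ly6c1, chr15:75048838-75049087, minus strand: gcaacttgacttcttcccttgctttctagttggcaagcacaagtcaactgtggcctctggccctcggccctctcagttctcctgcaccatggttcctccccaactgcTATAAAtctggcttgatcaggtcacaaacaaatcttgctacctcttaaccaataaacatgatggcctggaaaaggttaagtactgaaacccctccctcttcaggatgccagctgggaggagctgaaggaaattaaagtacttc

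Both strands were searched. The TATA motif TATAAA occurred in Ly6g and Ly6c1 and in 12.4% of 32817 promoters of the same length, the ETS-type motif AGGAAGT occurred in Ly6g and Ly6c2 (7.69% of promoters), and the C/EBP-type motif TTGCNNAA occurred in Ly6g (9.57%). No match to the core of the interferon-stimulated response element (GAAA, any 2 bases, GAAA, in 2.97% of promoters) or to TTCNNNGAA (7.01%) lay in these 3 windows. The motifs shown do not overlap one another, and a match is only a match of letters.

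Ly6g, the neutrophil member of the Gr-1 epitope, was a neutrophil transcript in both libraries and was slightly lower in 4T1M. Levels are given as CPM, the UMIs of a gene per 1000000 UMIs of the class. Neutrophils held 308 CPM of Ly6g in 4T1P (772 UMIs, 287 to 331) and 230 CPM in 4T1M (1513 UMIs, 218 to 242), a log2 ratio of 4T1M to 4T1P of -0.42 (-0.55 to -0.30). The counting intervals of the libraries did not overlap, yet the difference lay within 1.5-fold, and 95.4% of the 3843 genes counted in neutrophils had a higher ratio. Macrophages held 0.342 CPM in 4T1P (3 UMIs) and 1.28 CPM in 4T1M (12 UMIs, 0.664 to 2.24). Within each library macrophages were thus far below neutrophils, by a log2 ratio of -9.82 (-12.10 to -8.26) in 4T1P and -7.48 in 4T1M.

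A Ly6g UMI was seen in 15.8% of 4T1P neutrophils (97 of 612, 13.05% to 18.99%) and 16.1% of 4T1M neutrophils (271 of 1686, 14.4% to 17.9%), against 0.376% and 1.02% of the macrophages, which had more UMIs per cell and serve as the background. After thinning every cell to 1000 UMIs the neutrophil shares were 6.21% (4.43% to 8.42%) and 7.13% (5.95% to 8.47%). Most neutrophils therefore had no Ly6g UMI at this depth, and the shares of the libraries were not distinguishable. The UMIs were held by few cells, since the highest 10% of neutrophils carried 95.2% of them in 4T1P and 93.3% in 4T1M.

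The lower Ly6g sum of 4T1M rested on the deepest cells. The 5% of neutrophils with the most UMIs (31 cells above 10515 UMIs in 4T1P and 85 above 9905 in 4T1M) held 20.6% and 19.5% of the class's UMIs but 73.1% and 55.3% of its Ly6g UMIs. Their level was 1094 CPM in 4T1P and 653 CPM in 4T1M, whereas the remaining neutrophils stood at 105 and 128 CPM, which turns the log2 ratio to 0.29. With every cell weighted alike the ratio was -0.05. Whether these deep barcodes held more than 1 cell was not tested.

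Neutrophils that carried granule transcripts carried most of the Ly6g. Granule genes such as Camp, Ltf and Ngp are made by immature neutrophils in the marrow and fade as the cells mature. Neutrophils were divided by their summed UMIs of 12 such genes, none a Ly6 gene, after thinning: low cells had 0, middle cells 1 or 2, and high cells more than 2, and 80.5% of cells lay within 1 UMI of a limit. Ly6g stood at 21.2 CPM (12.6 to 33.5) in low, 40.4 CPM (25.9 to 60.1) in middle and 688 CPM (639 to 740) in high cells of 4T1P, where high cells held 730 of the 772 UMIs. The order was the same in 4T1M, with 25.1 CPM (19.2 to 32.3), 57.3 CPM (46.8 to 69.4) and 569 CPM (539 to 600). In 4T1M each interval lay apart from the next, and in 4T1P the low and middle intervals overlapped. High over low cells Ly6g reached a log2 ratio of 5.02 (4.35 to 5.78) in 4T1P and 4.50 (4.13 to 4.90) in 4T1M. Past 1.5-fold in both libraries there were 7.79% of 3789 genes higher and 25.3% lower in high cells. The granule list itself was lower in 4T1M neutrophils, with 0 of 6 counted genes past 1.5-fold higher and 3 lower, Camp at a log2 ratio of -0.91 (3575 against 1908 CPM), Ltf at -0.92 and Ngp at -0.71, against a background of 1.64% of genes lower. At least 2 of the 12 granule genes were seen in 33.8% of 4T1P and 34.7% of 4T1M neutrophils. The part of the lower granule list in the Ly6g value was not tested.

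Across neutrophils divided by interferon-stimulated genes, Ly6g ran the opposite way. Low cells had at most 1 UMI of the 33 measured genes of this list after thinning, high cells more than 5, and 65.7% of cells lay within 1 UMI of a limit. In 4T1P Ly6g stood at 491 CPM (454 to 530) in low, 116 CPM (91.9 to 144) in middle and 68.3 CPM (46.7 to 96.4) in high cells. In 4T1M the levels were 413 CPM (387 to 440), 176 CPM (160 to 194) and 73.3 CPM (61.6 to 86.6). High cells were lower than low cells by a log2 ratio of -2.85 in 4T1P and -2.49 in 4T1M, where 6.04% of 3709 genes were lower past 1.5-fold in both libraries. High cells made up 21.6% of the 4T1P and 31.7% of the 4T1M neutrophils. Within the high stratum the libraries could not be told apart for Ly6g (log2 ratio 0.10, -0.46 to 0.71), in the middle stratum 4T1M was higher (0.60, 0.26 to 0.97), and in the low stratum it was lower (-0.25, -0.39 to -0.10).

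**Figure D1:**
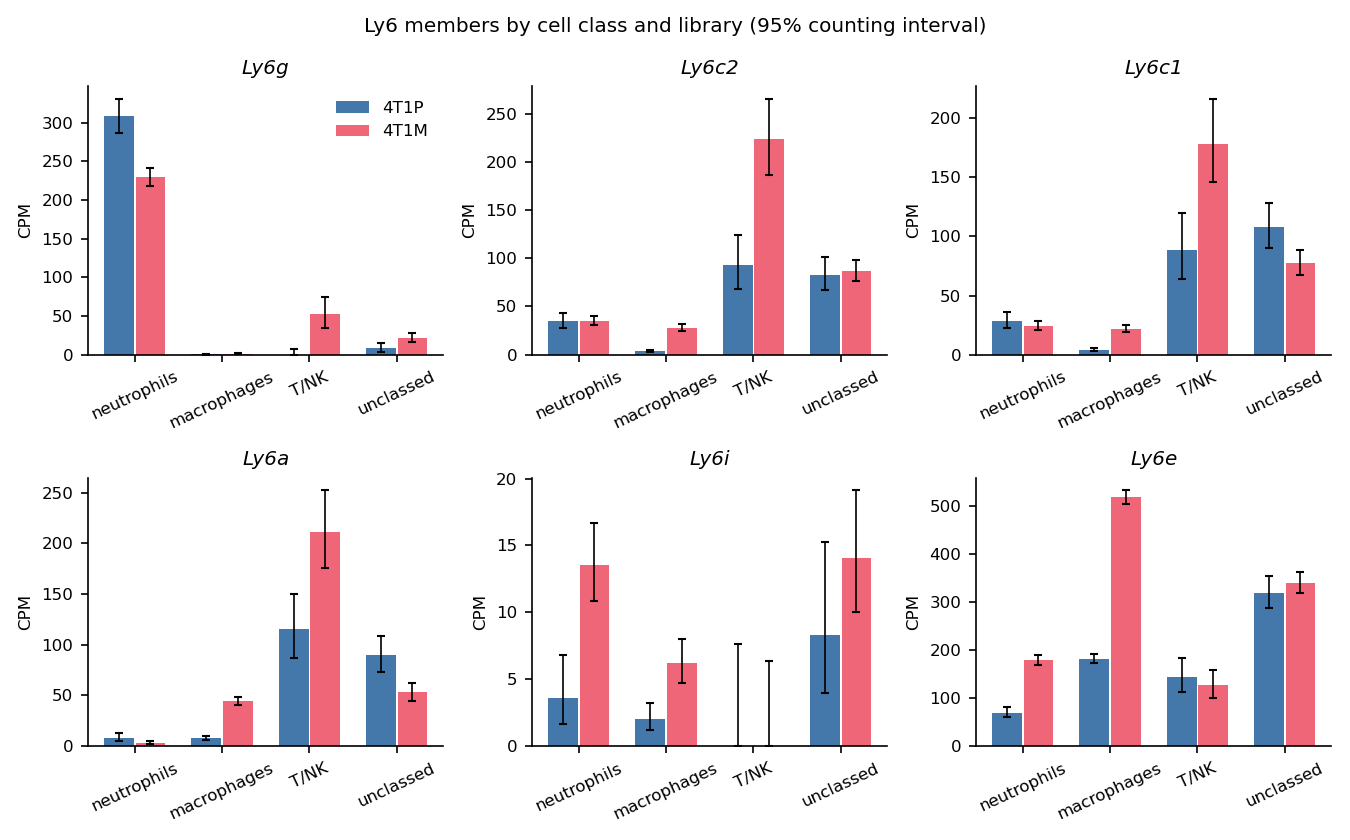
CPM (UMIs per 1000000 UMIs of the class) of the 6 Ly6 members in neutrophils, macrophages, T/NK cells and unclassed cells of the 4T1P (blue) and 4T1M (red) libraries; bars start at 0 and whiskers are 95% Poisson intervals for counting error in 1 library each. Ly6g stands at 308 and 230 CPM in neutrophils and near 0 in macrophages, while in macrophages Ly6c2, Ly6c1, Ly6a and Ly6e are higher in 4T1M with intervals apart.

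Ly6c1 and Ly6c2, which together encode the Ly6C antigen, were several-fold higher in 4T1M macrophages, while their neutrophil values depended on the deepest cells. In neutrophils Ly6c2 stood at 34.8 CPM (87 UMIs, 27.8 to 42.9) in 4T1P and 35.1 CPM (231 UMIs, 30.7 to 39.9) in 4T1M, and Ly6c1 at 28.4 CPM (71 UMIs, 22.1 to 35.8) and 24.5 CPM (161 UMIs, 20.8 to 28.6). The log2 ratios were 0.01 (-0.35 to 0.39) for Ly6c2 and -0.21 (-0.62 to 0.21) for Ly6c1, so that the intervals allow a difference of either sign. In 4T1P the deepest 5% of neutrophils held 73.6% of the Ly6c2 and 78.9% of the Ly6c1 UMIs, and in 4T1M 49.8% and 44.7%. Without these cells Ly6c2 stood at 11.6 and 21.9 CPM, past 1.5-fold higher in 4T1M (log2 ratio 0.92), and Ly6c1 at 7.55 and 16.8 CPM (1.15), below the 20 CPM set for counting a gene. In macrophages Ly6c2 stood at 3.76 CPM (33 UMIs, 2.59 to 5.29) in 4T1P and 28.0 CPM (262 UMIs, 24.7 to 31.7) in 4T1M, which is 7.45-fold higher (log2 ratio 2.90, 2.37 to 3.47). Ly6c1 stood at 3.99 CPM (35 UMIs) and 22.0 CPM (206 UMIs), which is 5.52-fold higher (log2 ratio 2.47, 1.94 to 3.03). Among the 5577 genes counted in macrophages no gene had a higher ratio than Ly6c2 and 1 gene a higher ratio than Ly6c1. Both reached the 20 CPM set for counting only in 4T1M, the library where they were higher.

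The difference in level went with a difference in the share of macrophages that held a Ly6C transcript. A Ly6c2 UMI was seen in 1.63% of 4T1P macrophages (13 of 798, 0.870% to 2.77%) and 8.50% of 4T1M macrophages (83 of 976, 6.83% to 10.4%), and after thinning in 0.518% and 2.34%. Both libraries had few such cells, and a minority of macrophages held all the UMIs. The highest 1% of cells held 84.8% of the UMIs in 4T1P (8 cells) and 41.2% in 4T1M (10 cells). Against neutrophils, macrophages were lower in Ly6c2 by a log2 ratio of -3.21 (-3.83 to -2.61) in 4T1P and -0.32 in 4T1M, and in Ly6c1 by -2.83 and -0.15. The 4T1M values changed sign without the deepest 5% of cells (0.55 for Ly6c2 and 0.57 for Ly6c1), so no direction can be given there.

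The Ly6C-bearing macrophages were those with little C1q and with monocyte transcripts. C1q is made by settled tissue macrophages, and the C1q strata were also part of the class rule and serve as a description. Of the macrophages 31.2% lay within 1 UMI of a limit between these strata. Among macrophages with at most 3 C1q UMIs after thinning, Ly6c1 and Ly6c2 together stood at 16.5 CPM (53 UMIs, 12.4 to 21.6) in 4T1P and 127 CPM (413 UMIs, 115 to 140) in 4T1M. In the middle stratum the sums were 0.987 and 15.6 CPM, and in the stratum above 9 UMIs 4.81 CPM (12 UMIs) and 2.35 CPM (7 UMIs). The difference between the libraries was thus large in the low stratum and not distinguishable in the high stratum (log2 ratio -1.03, -2.62 to 0.43). High over low cells Ly6C was lower by a log2 ratio of -1.78 (-2.82 to -0.86) in 4T1P and -5.76 (-7.08 to -4.70) in 4T1M, where 6.87% of 5428 genes were higher and 6.17% lower past 1.5-fold in both libraries. All 12 UMIs of the 4T1P high stratum lay in macrophages that carried markers of another cell type.

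A list of 8 monocyte genes divided the macrophages in the same way, with 81.6% of cells within 1 UMI of a limit. Macrophages with 0 UMIs of the list held 0.578 CPM of Ly6c1 and Ly6c2 in 4T1P (2 UMIs) and 7.91 CPM in 4T1M, those with 1 UMI held 2.43 and 12.9 CPM, and those with more held 18.9 CPM (61 UMIs, 14.5 to 24.3) and 151 CPM (404 UMIs, 136 to 166). Within the high stratum 4T1M was 7.98-fold higher (log2 ratio 2.997, 2.61 to 3.41). Of 5332 genes 1.54% were higher and 0.525% lower in the high stratum past 1.5-fold in both libraries. The monocyte list as a whole did not share the direction of Ly6C between the libraries, since 2 of its 7 counted genes were past 1.5-fold higher in 4T1M macrophages and 3 lower, with a median log2 ratio of -0.28 beside -0.03 over all genes. Plac8 (1.70) and Ms4a4c (1.22) were higher, F13a1 (-1.69), Vcan (-1.83) and S100a4 (-0.99) were lower, and Ccr2, the chemokine receptor of inflammatory monocytes, stood at 502 CPM in 4T1P and 414 CPM in 4T1M. Monocyte UMIs took 1447 CPM of the 4T1P and 1222 CPM of the 4T1M macrophages.

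The Ly6C difference was as large without macrophages that carried markers of other cells. Cells with UMIs of at least 2 markers of B cells, dendritic cells, plasmacytoid dendritic cells, mast cells, endothelium, fibroblasts or epithelium made up 62 of the 798 and 76 of the 976 macrophages. Without them Ly6c2 stood at 3.29 and 26.3 CPM (log2 ratio 2.999, 2.399 to 3.66) and Ly6c1 at 3.68 and 20.2 CPM (2.46, 1.87 to 3.09). The neutrophil marker list took more of the 4T1M macrophages, 263 CPM in 4T1P and 408 CPM in 4T1M with none of its 10 genes at 0, and Ly6g in the same cells was also higher in 4T1M (0.342 and 1.28 CPM). The part of neutrophil transcripts in the Ly6C difference was not tested.

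In neutrophils the Ly6C transcripts were highest, like Ly6g, in cells with more than 2 granule UMIs. Between low and middle granule cells no order could be given once marked cells were left out. In high granule cells Ly6c1 and Ly6c2 together stood at 99.0 CPM (105 UMIs, 81.0 to 120) in 4T1P and 104 CPM (246 UMIs, 91.2 to 118) in 4T1M. Low cells held 54.2 and 37.7 CPM, and middle cells 11.8 and 30.8 CPM. Of the 46 UMIs in 4T1P low cells 22 of Ly6c2 and 17 of Ly6c1 came from 1 barcode, described with Ly6a. Without cells marked for another type the low stratum of 4T1P stood at 8.58 CPM (3.45 to 17.7) and the middle at 12.3 CPM (4.95 to 25.4). In 4T1M these strata then stood at 37.3 CPM (29.9 to 45.9) and 31.7 CPM (24.0 to 41.2). Among thinned neutrophils with a Ly6g UMI 13.2% also had a Ly6c2 UMI in 4T1P (5 of 38, 4.41% to 28.1%) and 9 of 120 did so in 4T1M (3.49% to 13.8%), against 0.871% (5 of 574) and 1.02% (16 of 1562) of those without Ly6g. The intervals of cells with and without Ly6g lay apart in both libraries. In 4T1M a Ly6e UMI was also more frequent in cells with Ly6c2 (8 of 25, 14.9% to 53.5%) than in cells without (11.9%, 10.4% to 13.5%), whereas in 4T1P it was seen in 0 of 10 such cells. Over the interferon strata of 4T1M the summed Ly6C level was 88.1, 50.7 and 35.9 CPM, yet in the cells above the 90th percentile of the list it was 77.4 CPM (55.6 to 105), not distinguishable from the 95.6 CPM (78.5 to 115) of cells with none.

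Ly6c1 and Ly6c2 were counted in nearly the same places. Ly6c1 took 41.1% to 56.5% of their joint UMIs across the 4 classes of both libraries. The lowest share was that of 4T1M neutrophils (36.2% to 46.1%) and the highest that of unclassed 4T1P cells (49.8% to 63.0%). Over 16 groups of cells (neutrophils in 3 interferon strata, macrophages in 3 C1q strata, T/NK and unclassed cells of each library) the log2 levels of the pair had a Pearson r of 0.985, given as a description of groups that share libraries and, for this pair, partly share sequence.

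**Figure D2:**
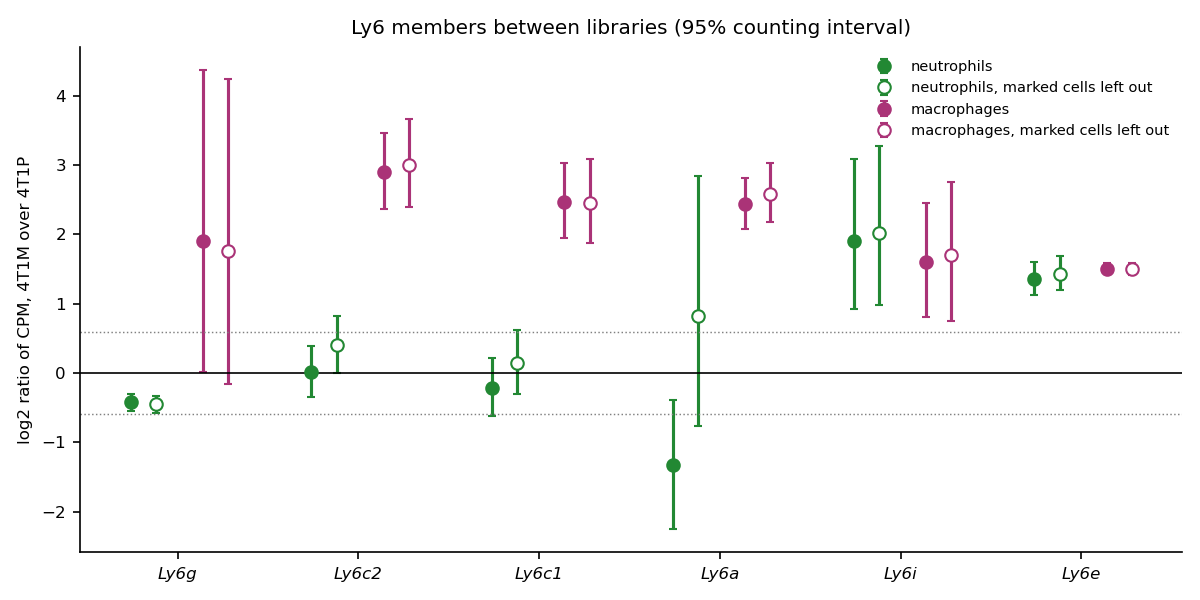
Log2 ratio of CPM in 4T1M over 4T1P for each Ly6 member in neutrophils (green) and macrophages (purple); open circles leave out cells with UMIs of at least 2 markers of another cell type, bars are 95% counting intervals, and dotted lines mark 1.5-fold. Ly6e and, on few UMIs, Ly6i lie above the upper line in both classes. In macrophages Ly6c2, Ly6c1 and Ly6a do so too, as does Ly6g on few UMIs with an interval that crosses the line. Ly6a in neutrophils moves from -1.33 to 0.83 when the marked cells are left out.

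Ly6a, the gene of Sca-1, was 5.41-fold higher in 4T1M macrophages and scarce in neutrophils. Macrophages held 8.21 CPM in 4T1P (72 UMIs, 6.43 to 10.3) and 44.4 CPM in 4T1M (415 UMIs, 40.2 to 48.9), a log2 ratio of 2.44 (2.07 to 2.82) that 2 of 5577 genes exceeded, those being Ly6c2 and Ly6c1. Ly6a, too, reached 20 CPM in macrophages only in 4T1M. A UMI was seen in 3.01% (1.94% to 4.44%) and 10.5% (8.60% to 12.5%) of the macrophages. In neutrophils Ly6a stood at 8.39 CPM in 4T1P (21 UMIs in 3 cells) and 3.34 CPM in 4T1M (22 UMIs in 16 cells), a log2 ratio of -1.33 (-2.26 to -0.39).

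The neutrophil value of 4T1P rested on 1 barcode. This barcode of 11750 UMIs and 2896 genes met the neutrophil rule with 2.04% of its UMIs from S100a8 and S100a9 and carried 8 of 10 neutrophil markers, and it also carried all 6 plasmacytoid dendritic cell markers and 2 of 6 dendritic cell markers. It held 16 of the 21 Ly6a UMIs, 22 of the 87 Ly6c2 UMIs, 17 of the 71 Ly6c1 UMIs and 0 Ly6g UMIs of the 4T1P neutrophils. Without the 8 marked neutrophils of each library Ly6a stood at 1.65 CPM (4 UMIs) in 4T1P and 2.93 CPM (19 UMIs) in 4T1M, with a log2 ratio of 0.83 (-0.76 to 2.84), so no direction can be given for Ly6a in neutrophils. The same cells left out moved Ly6c2 in neutrophils to 0.40 (0.0003 to 0.82) and Ly6c1 to 0.15 (-0.31 to 0.62).

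Over the C1q strata Ly6a fell less steeply than Ly6C in 4T1M, and in 4T1P no order could be given. In 4T1M macrophages it stood at 60.4 CPM (52.2 to 69.5) in low, 43.2 CPM (36.1 to 51.1) in middle and 28.5 CPM (22.8 to 35.2) in high C1q cells, and in 4T1P at 7.80, 9.87 and 6.81 CPM with overlapping intervals. By the monocyte list it stood at 23.3, 36.0 and 85.9 CPM in 4T1M and at 6.36, 3.89 and 13.01 CPM in 4T1P. For the interferon list low macrophages had at most 1 UMI after thinning and high macrophages more than 4. Of the macrophages 79.0% lay within 1 UMI of a limit of this list. By it Ly6a stood at 25.5, 40.0 and 56.0 CPM in 4T1M and at 2.22, 8.00 and 25.7 CPM in 4T1P. The libraries therefore kept their order in every one of these strata.

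Ly6i, a sparsely counted member beside Ly6a, was higher in 4T1M in both classes on few UMIs. Neutrophils held 3.60 CPM in 4T1P (9 UMIs, 1.64 to 6.83) and 13.5 CPM in 4T1M (89 UMIs, 10.9 to 16.6), a log2 ratio of 1.91 (0.92 to 3.09), and macrophages 2.05 CPM (18 UMIs, 1.22 to 3.24) and 6.21 CPM (58 UMIs, 4.71 to 8.03), a log2 ratio of 1.60 (0.81 to 2.45). Both intervals lie above 0, but no level reached the 20 CPM set for counting a gene. No Ly6i UMI was seen in the 74 and 98 T/NK cells, where 3 UMIs, the floor taken for a count of 0, would be 6.19 and 5.20 CPM. In neutrophils Ly6i stood at 1.49, 2.90 and 10.7 CPM over the low, middle and high interferon strata of 4T1P (2, 2 and 5 UMIs) and at 3.89 CPM (1.78 to 7.38), 11.4 CPM (7.52 to 16.6) and 28.0 CPM (20.9 to 36.6) over those of 4T1M. The high stratum stood above the others in 4T1M, and in 4T1P the intervals overlapped.

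Ly6e, too, was higher in 4T1M in neutrophils and macrophages alike. Neutrophils held 69.5 CPM in 4T1P (174 UMIs, 59.6 to 80.6) and 178 CPM in 4T1M (1174 UMIs, 168 to 189), which is 2.57-fold higher (log2 ratio 1.36, 1.13 to 1.60), and 21 of 3843 genes had a higher ratio. Macrophages held 182 CPM (1597 UMIs, 173 to 191) and 518 CPM (4837 UMIs, 503 to 533), which is 2.84-fold higher (1.51, 1.43 to 1.59), with 15 of 5577 genes above it. A UMI was seen in 15.2% and 29.5% of neutrophils and in 44.4% and 70.4% of macrophages. After thinning the shares were 4.58% and 12.2% of neutrophils and 13.5% and 31.1% of macrophages, with intervals of the libraries apart in both classes. The UMIs were spread over more cells than those of Ly6g, since the highest 10% of cells held 82.2% and 65.7% of them in neutrophils and 63.1% and 44.0% in macrophages. Left without the deepest 5% of cells, neutrophils stood at 66.4 and 173 CPM.

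Ly6e was higher in cells with more interferon-stimulated transcripts. In 4T1P neutrophils it stood at 43.1 CPM (32.8 to 55.8) in low, 40.6 CPM (27.0 to 58.7) in middle and 188 CPM (151 to 231) in high cells. In 4T1M neutrophils it stood at 98.5 CPM (86.1 to 112), 155 CPM (139 to 171) and 306 CPM (282 to 332). High cells exceeded low cells by a log2 ratio of 2.12 (1.63 to 2.63) in 4T1P and 1.64 (1.41 to 1.86) in 4T1M, where 7.25% of 3709 genes were higher past 1.5-fold in both libraries. The libraries still differed within each stratum, by a log2 ratio of 1.19 (0.77 to 1.63) in low, 1.93 (1.38 to 2.54) in middle and 0.70 (0.38 to 1.04) in high cells. The list itself was higher in 4T1M, with 16 of 26 counted genes past 1.5-fold higher in neutrophils (background 7.08%) and 0 lower, and with 28 of 30 higher in macrophages (background 2.96%). Examples in macrophages are Irf7, a transcription factor of the interferon response, at 1.59, Rsad2, which encodes viperin, at 1.44, and Isg15, a ubiquitin-like modifier, at 1.18.

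In macrophages Ly6e did not show the order of Ly6C over C1q. It stood at 193, 156 and 199 CPM over the low, middle and high C1q strata of 4T1P and at 514, 486 and 556 CPM over those of 4T1M, and the library ratios within strata were 1.41, 1.64 and 1.48. Over the interferon strata of macrophages, with the limits given for Ly6a, the levels were 127 CPM (116 to 138), 197 CPM (182 to 213) and 304 CPM (277 to 334) in 4T1P. In 4T1M they were 320 CPM (294 to 348), 466 CPM (443 to 489) and 643 CPM (619 to 668). Of 5389 genes 5.27% were higher and 2.34% lower in the high interferon stratum past 1.5-fold in both libraries. Over the monocyte strata the Ly6e levels were 144, 195 and 215 CPM in 4T1P and 371, 514 and 758 CPM in 4T1M. By granule genes of neutrophils Ly6e, unlike Ly6g, was lower in high than in low cells. Low, middle and high cells held 87.3, 70.7 and 54.7 CPM in 4T1P and 220, 219 and 106 CPM in 4T1M. High over low cells the log2 ratio was -0.67 (-1.20 to -0.16) in 4T1P and -1.05 (-1.27 to -0.83) in 4T1M. Of 3789 genes 25.3% were likewise lower past 1.5-fold in both libraries.

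**Figure D3:**
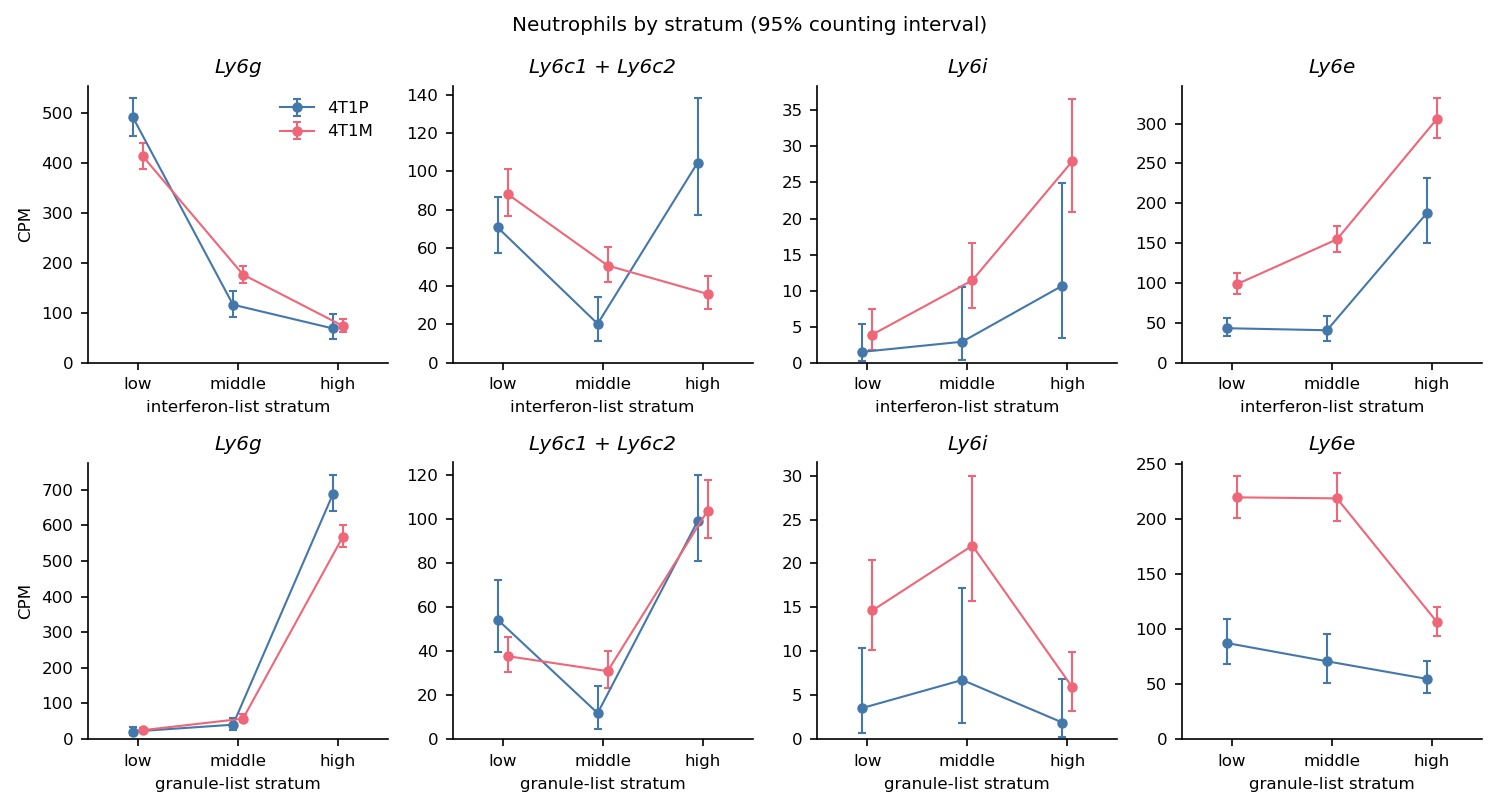
CPM of Ly6g, of Ly6c1 and Ly6c2 summed, of Ly6i and of Ly6e in neutrophils cut by interferon-stimulated genes (top) and by granule genes (bottom), in 4T1P (blue) and 4T1M (red), with 95% counting intervals. Ly6g goes from 21.2 CPM in low to 688 CPM in high granule cells of 4T1P while Ly6e is highest in high interferon cells, and the high point of Ly6c1 and Ly6c2 in the interferon-high 4T1P cells (105 CPM) is 22.6 CPM without cells marked for another type.

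**Figure D4:**
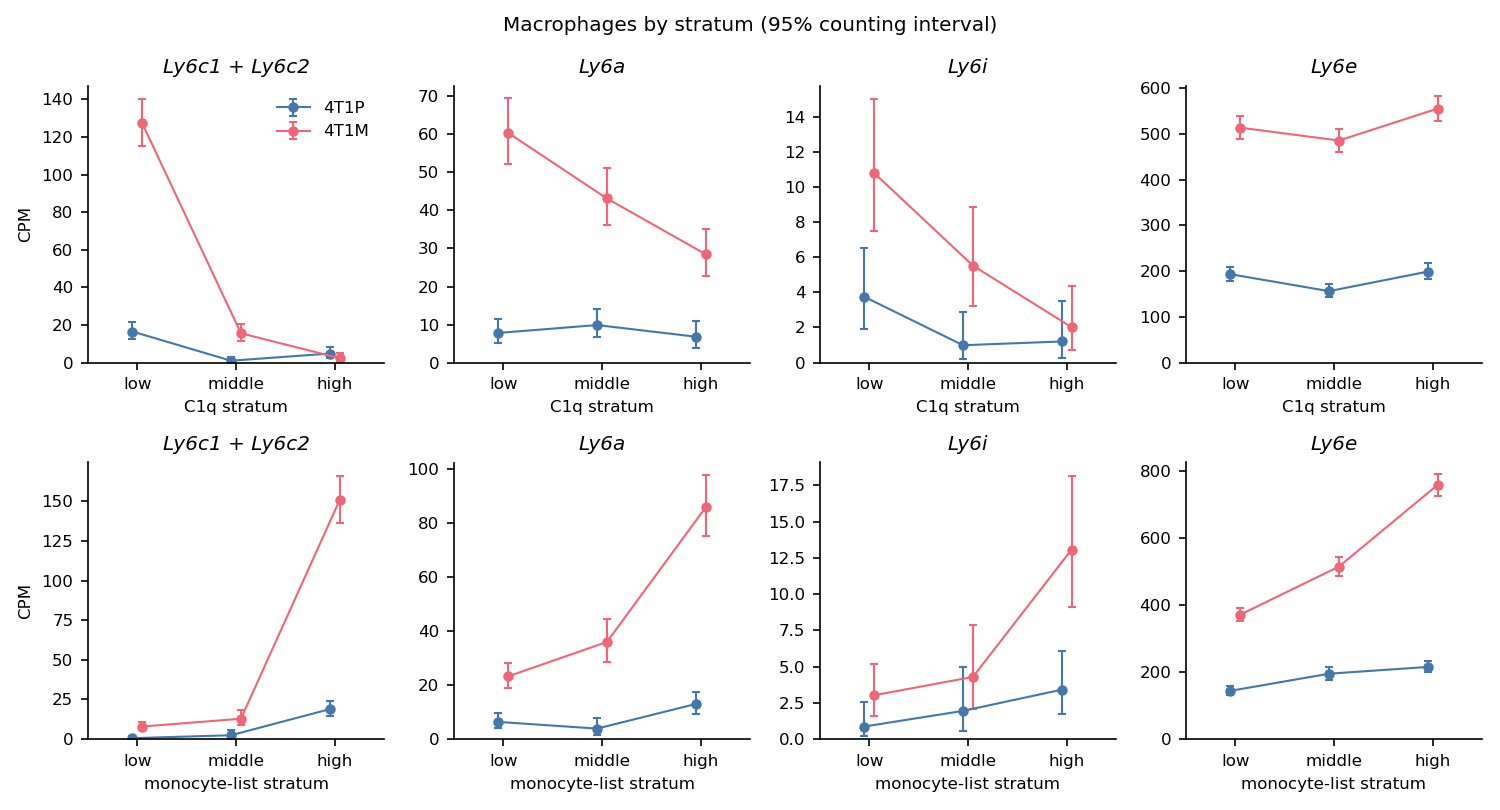
CPM of Ly6c1 and Ly6c2 summed, of Ly6a, of Ly6i and of Ly6e in macrophages cut by C1q genes (top) and by monocyte genes (bottom), in 4T1P (blue) and 4T1M (red), with 95% counting intervals. Ly6C goes from 127 CPM in low to 2.35 CPM in high C1q cells of 4T1M and stands at 151 CPM in high monocyte cells, whereas Ly6e stays between 486 and 556 CPM over the C1q strata.

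Between macrophages and neutrophils, among the members counted, Ly6e was higher in macrophages in both libraries and Ly6g lower. Ly6a was not counted, being below 20 CPM in both classes of 4T1P. In 4T1M it was higher in macrophages by a log2 ratio of 3.73 (3.11 to 4.42). In 4T1P the Ly6a ratio was -0.03 (-0.75 to 0.75), and 2.11 without cells marked for another type. Of the 4 members at 20 CPM or more in both libraries' comparisons, 1 was past 2-fold higher in macrophages in both libraries (Ly6e, log2 ratio 1.39 in 4T1P and 1.54 in 4T1M) and 1 lower (Ly6g), beside 43.3% of 5557 genes higher and 11.4% lower. The median gene was itself higher in macrophages, by 0.95 and 0.80 on the log2 scale. The 10 most abundant genes took 31.6% and 30.4% of neutrophil UMIs and 12.7% and 12.8% of macrophage UMIs. The part of these genes in the higher median was not tested. With TMM scaling Ly6e lay at 0.71 and 0.80 and with DESeq2 size factors at 0.58 and 0.70, that is within 2-fold. These scalings lower all ratios alike, by 0.68 and 0.74 with TMM and by 0.81 and 0.83 with DESeq2, so Ly6e stood above the median gene in both libraries under each of them.

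Between the libraries the members can be set beside all genes. In neutrophils 1 of 4 counted members was past 1.5-fold higher in 4T1M (Ly6e) and 0 were lower, where 7.08% of 3843 genes were higher and 1.64% lower and the median log2 ratio was 0.04. In macrophages 4 of 4 counted members were higher (Ly6c2, Ly6c1, Ly6a and Ly6e) and 0 lower, where 2.96% of 5577 genes were higher and 1.94% lower. Ly6c2, Ly6c1 and Ly6a reached 20 CPM only in 4T1M, so their being counted already set their direction. The 4 genes are neighbors of 1 locus and are not independent of each other.

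T/NK cells carried Ly6C and Sca-1 transcripts and served as a check of Ly6g. Like all cells here they came from a selection with an antibody that also binds Ly6C. The effect of this on their Ly6C levels and shares was not tested. Ly6c2 stood at 92.8 CPM in 4T1P (45 UMIs, 67.7 to 124) and 223 CPM in 4T1M (129 UMIs, 187 to 266), Ly6c1 at 88.7 CPM (64.2 to 119) and 178 CPM (146 to 216), and Ly6a at 115 CPM (87.2 to 150) and 211 CPM (176 to 252). All 3 lay past 1.5-fold higher in 4T1M, with log2 ratios of 1.27 (0.77 to 1.79), 1.01 (0.48 to 1.56) and 0.87 (0.40 to 1.36), where 10.6% of 6139 genes did so and 19.6% were lower. A Ly6c2 UMI was seen in 16.2% of the 74 cells of 4T1P (8.67% to 26.6%) and 48.0% of the 98 cells of 4T1M (37.8% to 58.3%). Ly6e stood at 144 CPM (113 to 182) and 126 CPM (99.1 to 159), with intervals overlapping. Ly6g was counted with 0 UMIs in 4T1P T/NK cells, where the floor of 3 UMIs would be 6.19 CPM. In 4T1M it was counted with 30 UMIs (52.0 CPM) in 2 T/NK cells, both of which also met the neutrophil rule.

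Taken gene by gene, the order of the classes was as follows. Ly6g stood highest in neutrophils, and unclassed cells stood above macrophages in both libraries. T/NK cells of 4T1M came second, but only through 2 cells that also met the neutrophil rule. T/NK cells of 4T1P, with 0 UMIs (upper limit 7.61 CPM), could not be placed against macrophages or unclassed cells. Ly6c2, Ly6c1 and Ly6a stood lowest in macrophages or neutrophils and higher in unclassed and T/NK cells. In 4T1P the T/NK and unclassed intervals of these 3 genes overlapped, and in 4T1M T/NK cells stood above the others. In 4T1M the macrophage and unclassed intervals of Ly6a overlapped, as did the macrophage and neutrophil intervals of Ly6c2 and Ly6c1. Ly6e stood lowest in neutrophils of 4T1P and in T/NK cells of 4T1M, and highest in unclassed cells of 4T1P (320 CPM, 288 to 353) and in macrophages of 4T1M, while the T/NK and macrophage intervals of 4T1P overlapped. Unclassed cells held 83.0 and 86.4 CPM of Ly6c2, 108 and 77.2 CPM of Ly6c1, 89.7 and 53.0 CPM of Ly6a, 8.30 and 14.0 CPM of Ly6i and 8.30 and 21.8 CPM of Ly6g in 4T1P and 4T1M. Of the 5 members counted there 1 was past 1.5-fold higher in 4T1M (Ly6g, log2 ratio 1.39) and 1 lower (Ly6a, -0.76), beside 6.47% of 5721 genes higher and 14.5% lower. Ly6g reached 20 CPM there only in 4T1M, so its being counted already set its direction.

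Among the unclassed cells some members stood high in small groups, while larger groups also held many of their UMIs. Cells with UMIs of at least 2 plasmacytoid dendritic cell markers, 14 of 243 in 4T1P and 18 of 705 in 4T1M, held 411 and 467 CPM of Ly6c2 and 320 and 412 CPM of Ly6a, and 49.1% and 49.7% of the unclassed Ly6a UMIs. Cells with at least 2 endothelial markers, 10 and 12, held 532 and 509 CPM of Ly6a. Cells with at least 2 macrophage markers, 124 and 349, held 51.9% and 81.5% of the unclassed Ly6a UMIs. They also held 58.0% and 77.2% of the unclassed Ly6c2 UMIs. Of all unclassed UMIs they held 827904 of 1204573 in 4T1P and 1940965 of 2848266 in 4T1M. Their Ly6a level was 67.6 and 63.4 CPM, beside 89.7 and 53.0 CPM in all unclassed cells. Their Ly6c2 level was 70.1 and 97.9 CPM, beside 83.0 and 86.4 CPM. Both levels were thus below those of all unclassed cells in 4T1P and above them in 4T1M. A cell can carry more than 1 set of markers, so these shares overlap. Cells with at least 2 neutrophil markers, 138 and 547, held 80.0% and 95.2% of the unclassed Ly6g UMIs. Of all unclassed UMIs they held 640893 in 4T1P and 2001517 in 4T1M. Their Ly6g level was 12.5 and 29.5 CPM, beside 8.30 and 21.8 CPM in all unclassed cells.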

How the data were processed

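GR1+ cells of 4T1P and 4T1M tumors were profiled in 1 pooled droplet library each. The authors aligned reads to mm10 and counted UMIs with Cell Ranger (4.0.0 in the submitters' processing notes, another version in the methods), and deposited them as whole counts per gene and barcode with no normalization. UMIs were summed per class and library as CPM with exact Poisson intervals, shares of cells have exact binomial intervals, and log2 ratios exact conditional intervals, all at 95% and for counting error only. Genes were counted from 20 CPM in either group. No p-value was computed. Classes held from 484905 UMIs (4T1P T/NK cells) to 9343315 UMIs (4T1M macrophages), and 3 UMIs were taken as the floor of a count of 0.

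Cells were classed by rule without clustering, cells meeting 2 rules stayed in both classes, and no doublet caller was run. For shares, strata and joint detection each cell was thinned to 1000 UMIs (seed 1), which left out 63 macrophages, 4 neutrophils, 1 T/NK cell and 18 unclassed cells. Strata were set on summed list UMIs over both libraries, so they are ranges and not cell types. The members, lists and rules were chosen with earlier results of these data known. Named were the 6 members, other Ly6/uPAR genes of at least 100 UMIs, list genes, and the 3 genes most like each member by Pearson r of log2(CPM + 10).

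R 4.3.3, edgeR 4.0.16 and DESeq2 1.42.0 (scaling factors only), Python 3.11.15, scipy 1.17.1 and Biopython 1.88 were used. On data simulated from the neutrophil comparison 96.0% of 9994 genes, and 191 of 200 changed genes, had the simulated ratio inside their interval. This checks the calculation only. The intervals treat UMIs as independent, whereas 1 barcode held 16 of the 21 Ly6a UMIs of 4T1P neutrophils, so they do not cover clustering of UMIs in few cells. Mx1 and Mx2 of the interferon list and Lypd8l were not analysed here.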

Additional observations from a re-analysis of the deposited data

Results flagged for a closer look

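Ly6g and Ly6a pointed in opposite directions in the 2 main classes. Ly6g was lower in 4T1M neutrophils (log2 ratio -0.42) and higher in 4T1M macrophages (1.91, on 3 and 12 UMIs), and Ly6a was lower in 4T1M neutrophils (-1.33) and higher in 4T1M macrophages (2.44). The difference between classes was not tested, since each rests on 1 library per tumor line. The neutrophil value of Ly6a turns without 8 cells of each library that carried markers of another type, and that of Ly6g turns without the deepest 5% of cells, both as given with the results.

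The barcodes that were not retained, 1221 in 4T1P and 1543 in 4T1M, also held UMIs of the members, above the level that 3 UMIs would give (0.337 and 0.600 CPM). In 4T1P they held 8.08 CPM of Ly6g, 1.01 CPM of Ly6c2, 2.47 CPM of Ly6c1, 31.9 CPM of Ly6a, 1.68 CPM of Ly6i and 124 CPM of Ly6e. In 4T1M they held 20.6 CPM of Ly6g, 6.20 CPM of Ly6c2, 7.80 CPM of Ly6c1, 30.6 CPM of Ly6a, 4.60 CPM of Ly6i and 269 CPM of Ly6e. Their intervals for Ly6a (28.3 to 35.8 and 25.9 to 35.8 CPM) overlapped, unlike those of macrophages. Ly6e was higher in 4T1M, as in neutrophils and macrophages (117 to 131 against 255 to 284 CPM). In unclassed cells (320 and 340 CPM, log2 ratio 0.09, -0.08 to 0.26) and T/NK cells (-0.19, -0.68 to 0.30) the libraries were not distinguishable for Ly6e.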

How the results depend on the processing

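Of 214 log2 ratios of the members under 9 alternatives, 155 stayed within the counting interval of the reported value, 57 moved outside it, and 2 that were past 1.5-fold changed sign, both Ly6a in neutrophils (0.85 with a mitochondrial limit of 5% and 0.83 without cells marked for another type, the latter chosen after seeing the data). Another 17 values within the fold limit changed sign, 13 of them outside the interval, among them Ly6g (0.29) and Ly6c1 (1.15) in neutrophils without the deepest 5% of cells. In macrophages 4 members stayed past 1.5-fold higher under every alternative that kept the 20 CPM minimum, with ranges of 2.56 to 3.06 for Ly6c2, 2.38 to 2.55 for Ly6c1, 2.401 to 2.78 for Ly6a and 1.19 to 1.56 for Ly6e. In neutrophils Ly6e ranged from 0.95 to 1.59 and Ly6g from -0.59 to 0.29. The count of members lower in 4T1M neutrophils went from 0 to 1 (Ly6g) at the 5% mitochondrial limit, and without the CPM minimum 2 were higher and 1 lower (main 1 and 0). The count higher went from 1 to 2 without the deepest 5% of cells, the second being Ly6c2 (0.92), which then reached 20 CPM only in 4T1M. Between macrophages and neutrophils TMM and DESeq2 scaling each gave 0 members higher and 2 lower (main 1 and 1). Members with a higher share of 4T1M neutrophils numbered 5 at 1000 thinned UMIs, 3 at 500 and 6 at 2000. Such a count includes near-ties, as Ly6a at 1000 thinned UMIs with 0.163% in 4T1P and 0.178% in 4T1M. No share over all genes is given beside the counts of members under these alternatives, so they show only how each count moved. Under stricter class limits Ly6a had 0 UMIs in 4T1P neutrophils and gave no ratio. The causes of these changes were not tested. No paired analysis was possible because each tumor line has 1 library and the labels carry no replicate numbers, and for the same reason no replicate could be left out. Depth limits Ly6i, Ly6a in neutrophils and Ly6g in macrophages, each on fewer than 100 UMIs per class in both libraries. In 4T1P alone it also limits Ly6c2, Ly6c1 and Ly6a in macrophages (33, 35 and 72 UMIs). The highest 8 cells held 84.8%, 82.9% and 72.2% of these. Ly6c2 and Ly6c1 in 4T1P neutrophils (87 and 71 UMIs) were likewise below 100.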

Other observations

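Of 39 further genes of the Ly6/uPAR family 38 were found, of which 23 had no UMI in the retained cells, 13 had fewer than 100 and 2 had more. Plaur, the urokinase receptor, stood at 905 CPM in 4T1P neutrophils and 712 CPM in 4T1M neutrophils (log2 ratio -0.35, -0.42 to -0.27) and at 253 and 267 CPM in macrophages. Cd177, a neutrophil surface antigen, stood at 192 and 153 CPM in neutrophils (-0.33, -0.49 to -0.17) and at 0.456 and 1.71 CPM in macrophages. In neutrophils both lay within 1.5-fold between the libraries, near the value of Ly6g, and in macrophages Cd177 had a log2 ratio of 1.91 (0.28 to 3.95) on few UMIs.

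Over the 16 groups of cells the genes most like Ly6g in log2 level were Mapk13 (Pearson r 0.975), Ankrd22 (0.963) and Ifitm6 (0.962), and those most like Ly6e were Ifi27l2a (0.862), Mvb12a (0.841) and Gbp3 (0.829). Ly6c2 was most like Phf3 (0.912), Ly6a most like Rbm34 (0.928) and Ly6i most like Fbxo11 (0.843). These were the highest of 7718 genes compared over groups that share libraries and differ in depth, and they are given as a description only. Among the members themselves Ly6g and Ly6e had an r of -0.66.

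Set against the neutrophil marker list, Ly6g was counted at 13.6 and 12.5 UMIs per 1000 list UMIs in neutrophils, 1.30 (0.269 to 3.81) and 3.14 (1.62 to 5.49) in macrophages, and 2.69 and 4.98 in unclassed cells. Macrophages and unclassed cells thus held less Ly6g for their neutrophil-list UMIs than neutrophils did.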
